A study of Homo sapiens with 6 samples.

Results

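The mRNAs described here encode 42 proteins of mitosis: the kinases and cyclins of mitotic entry, the spindle checkpoint, the chromosomal passenger complex, the kinetochore, the mitotic kinesins with their spindle and cytokinesis partners, the condensin complex and the machinery of anaphase onset. They were chosen by name, as a list of mitosis genes, with earlier results of these data known. Within the rule, measured values enter only in the choice of probe set. On the array 41 of the 42 had a probe set annotated with that gene symbol alone, of 18417 such genes in all, and where a gene had several the brightest over the 6 arrays was taken. CENPA, the histone H3 variant of centromeres, shares its probe set with SLC35F6 and is left out of the counts of array values, though not of those of promoters. That shared probe set had log2 values of 7.16, 6.96 and 7.05 in CD47- EVs and of 7.05, 7.04 and 6.99 in WT EVs.

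The arrays measured RNA of extracellular vesicles (EVs), 3 preparations from CD47- cells and 3 from WT cells. The CD47- cells were JinB8, a mutant of the Jurkat T cell leukemia line that lacks CD47, a widely expressed surface receptor for thrombospondin-1 and SIRPα. The WT cells were the Jurkat line itself (JK). Both lines were kept without serum in HITES medium for 24 to 48 h, and EVs were precipitated from concentrated supernatant with Exo-quick or Exo-spin, the kit of each preparation not being stated. From each preparation 300 ng of total RNA was labeled for an Affymetrix HuGene 1.0 ST array. JinB8 is 1 mutant line, so that loss of CD47 cannot be told apart from other differences between the 2 lines. The labels speak of replicates in cell culture and do not state separate cultures, and the p values below therefore measure the spread between these samples, which may be technical.

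Mitosis begins when cyclin-dependent kinase CDK1, bound to A- and B-type cyclins, drives chromosome condensation and spindle assembly with the help of Polo-like and Aurora kinases. The spindle checkpoint, built from BUB and MAD proteins, holds the anaphase-promoting complex (APC/C) in check until every kinetochore is attached to microtubules. CDC20 then activates the APC/C, securin and cyclin B are destroyed, and separase opens the cohesin rings that hold sister chromatids together. Many of these genes are transcribed together in G2 and M phase through a promoter sequence called the cell cycle genes homology region (CHR), which is bound by the MuvB complex, often with CCAAT boxes bound by NF-Y upstream.

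Promoters are shown for 7 of the 11 mRNAs whose arrays did not overlap between CD47- and WT EVs. AURKA, BUB3 and TPX2 had no RefSeq window at hand, and SMC2 was left out because its only match spans the start. Matches not wholly within the printed bases are not marked. Each line holds the 100 bases before the annotated transcription start, read 5′ to 3′ on the strand of the gene (RefSeq, GRCh38.p14). Capitals mark CHR matches (TTTGAA or TTCGAA) and CCAAT boxes (CCAAT), both sought on either strand, so that TTCAAA and ATTGG are the same letters on the other strand.
BUB1: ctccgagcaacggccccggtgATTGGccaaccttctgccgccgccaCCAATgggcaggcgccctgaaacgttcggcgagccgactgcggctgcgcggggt
BUB1B: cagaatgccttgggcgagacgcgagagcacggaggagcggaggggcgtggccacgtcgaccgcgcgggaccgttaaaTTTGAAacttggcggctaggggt
INCENP: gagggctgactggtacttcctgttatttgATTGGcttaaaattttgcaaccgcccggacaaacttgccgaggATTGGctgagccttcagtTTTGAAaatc
KIF4A: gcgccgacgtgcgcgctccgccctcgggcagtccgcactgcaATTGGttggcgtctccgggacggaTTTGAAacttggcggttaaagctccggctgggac
PRC1: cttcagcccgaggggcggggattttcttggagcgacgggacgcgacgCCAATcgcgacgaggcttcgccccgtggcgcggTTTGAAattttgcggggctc
ANLN: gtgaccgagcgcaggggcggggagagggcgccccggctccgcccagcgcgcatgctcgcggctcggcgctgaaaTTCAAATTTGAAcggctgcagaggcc
MKI67: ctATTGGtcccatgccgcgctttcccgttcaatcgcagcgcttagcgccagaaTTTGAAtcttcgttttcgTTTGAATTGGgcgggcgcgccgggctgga
The windows lie at chr2:110678064-110678163 (minus strand) for BUB1, chr15:40160969-40161068 (plus) for BUB1B, chr11:62123911-62124010 (plus) for INCENP, chrX:70290004-70290103 (plus) for KIF4A, chr15:90994536-90994635 (minus) for PRC1, chr7:36389762-36389861 (plus) for ANLN and chr10:128126424-128126523 (minus) for MKI67. The CHR match of BUB1, whose letters TTCGAA read the same on both strands, begins at base 2 of the transcript and so lies outside its window. In ANLN 2 matches on opposite strands adjoin, and in MKI67 the second CHR match runs into an ATTGG.

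RefSeq windows of 300 bases, 250 before the start and 50 after it, were at hand for 36 of the 42 genes. AURKA, BUB3, TTK, BIRC5, TPX2 and UBE2C had none in the table used. A CHR match was found in 26 of the 36 windows (72.2%), against 1823 of the 13771 windows of protein-coding genes on the array (13.2%). CCAAT was found in 26 windows of mitosis genes (72.2%), against 5007 of all (36.4%), and both elements together in 19 (52.8%), against 751 of all (5.45%). The E2F-like words TTTGGCGC and TTTCGCGC, on either strand, were found in 1 window of a mitosis gene (2.78%), that of CDK1, against 232 of all (1.68%). In 17 windows (47.2%) a CHR match began within the 60 bases before the start, against 306 of all (2.22%), a stretch chosen after the positions were seen. These matches describe the letters of the windows and do not show binding. Between EVs, the median log2 difference, CD47- minus WT, was 0.03 over the 25 measured members with a match (from -0.21 to 0.34) and 0.06 over the 10 without one (from -0.12 to 0.26).

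**Figure D1:**
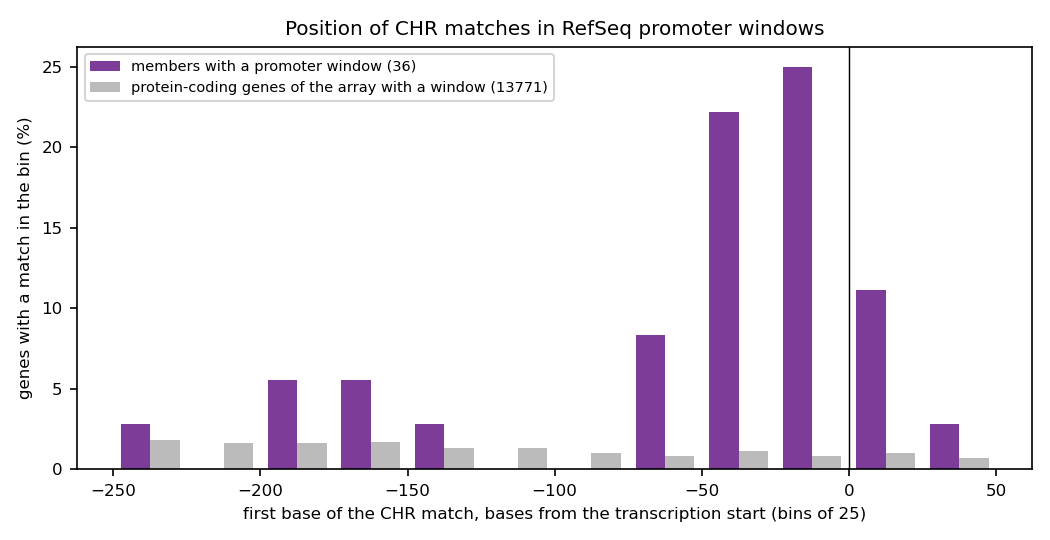
Share of genes with a CHR match (vertical axis, %) by the distance of its first base from the transcription start (horizontal axis, bins of 25 bases), for the 36 mitosis genes with a window in purple and the 13771 protein-coding genes in grey. The purple bars are tallest in the bins just before the start, and 17 of the 36 genes had a match that began in the 60 bases before it.

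Across the 41 measured mRNAs, 0 passed an adjusted p under 0.05 (limma, Benjamini-Hochberg over all 18417 genes), whereas 0.668% of all genes passed as higher and 0.0163% as lower in CD47- EVs. At an unadjusted p under 0.05, limma gave 7 higher mRNAs (17.1%), against 5.16% of all genes, and 1 lower (2.44%), against 2.87%. The 3 CD47- arrays all lay above the 3 WT arrays for 8 mRNAs (19.5%), against 7.3% of all genes. They all lay below for 3 (7.32%), against 5.53% of all genes. The mRNAs thus stood above their background share on the higher side and near it on the lower side. Above the olfactory receptor median, a gauge of background given below, 1 of 10 members was higher without overlap, against 9.45% of genes. With 10 members that count is too small to show whether the excess is present there.

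The log2 differences, CD47- minus WT, ran from -0.21 for KIF4A to 0.34 for BUB1, with 28 of 41 above 0. Their median was 0.06, against 0.0029 over all genes. Leaving out WT replicate 3 gave 0.01. Leaving out CD47- replicate 1 gave 0.09, and doing so with CD47- replicate 2 gave 0.04. Each of the 41 limma 95% intervals lay within 1 log2 unit of 0, and their bounds spanned -0.49 to 0.53. A 2-fold difference in either direction was therefore outside the interval of every measured member, on the scale of these probe sets. The intervals of 33 members held 0.

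**Figure D2:**
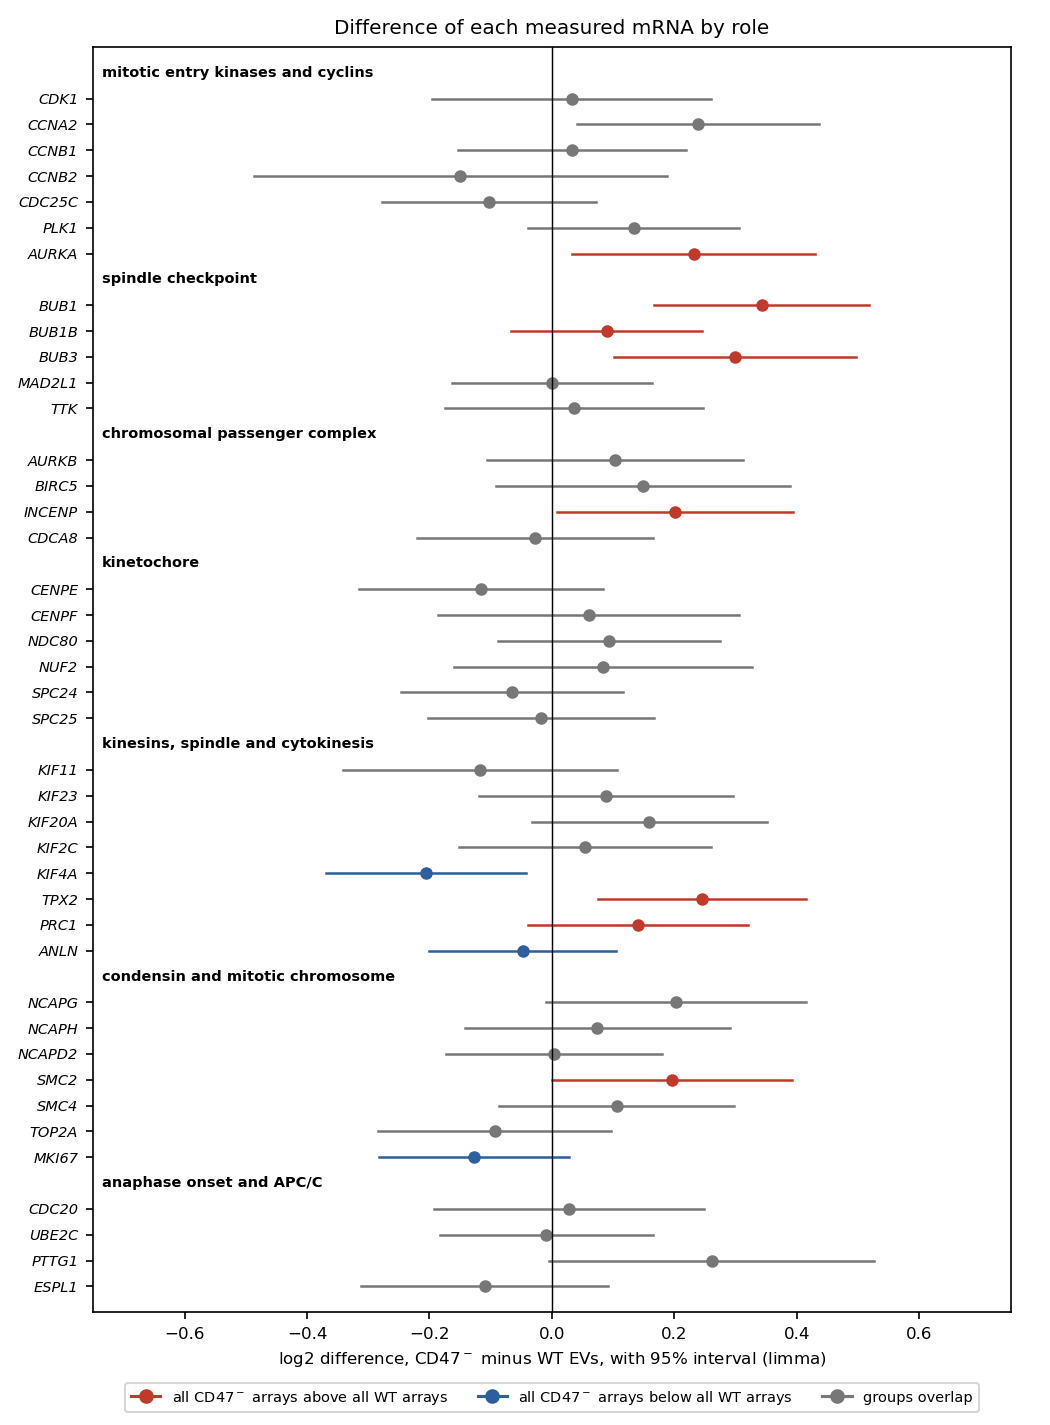
Log2 difference of each of the 41 measured mRNAs, CD47- minus WT EVs, on the horizontal axis, with its 95% interval from limma, grouped by role. The points run from -0.21 to 0.34, and colour marks the 8 mRNAs with all CD47- arrays above all WT arrays and the 3 with all below.

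The deposited values carry no detection calls, so the 341 olfactory receptor genes, whose expression is typical of olfactory neurons, served as a gauge of background. Their median was a log2 value of 5.49 and their 95th percentile was 6.79. Of the mitosis mRNAs 10 (24.4%) had a mean above that median, against 39.4% of all genes, and 0 had a mean above the 95th percentile, which 864 of all genes exceeded. The 10 were PLK1, AURKB, BIRC5, INCENP, NCAPH, NCAPD2, CDC20, UBE2C, PTTG1 and ESPL1. Probe sets differ in how strongly they bind, so a dim probe set does not show that an mRNA is missing from EVs. The median difference was 0.09 for the 10 mRNAs above the gauge and 0.05 for the 31 below it.

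**Figure D3:**
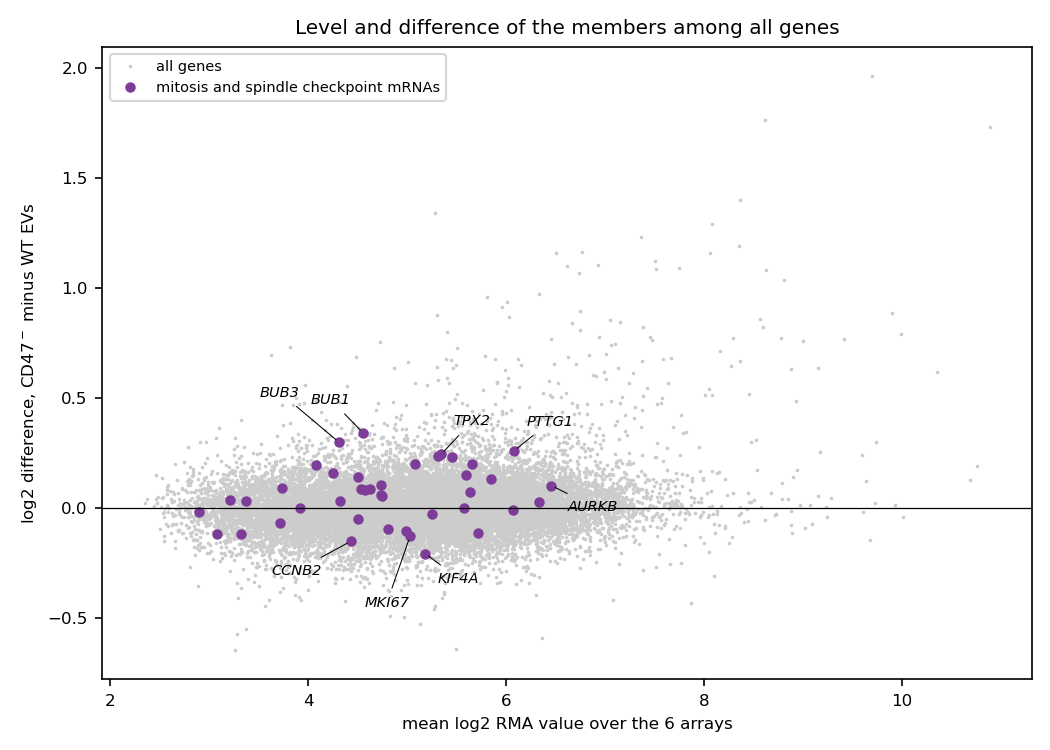
Level, as the mean of the 6 log2 RMA values (horizontal axis), and log2 difference, CD47- minus WT EVs (vertical axis), for all 18417 genes in grey and the 41 mitosis mRNAs in purple. The mitosis mRNAs lie between 2.90 and 6.46 on the level axis and between -0.21 and 0.34 on the difference axis, inside the cloud of all genes.

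The spindle checkpoint held the 2 mRNAs with the highest differences. BUB1, a kinase that recruits other checkpoint proteins to kinetochores, had log2 values of 4.69, 4.82 and 4.68 in CD47- EVs and of 4.49, 4.35 and 4.31 in WT EVs. The groups did not overlap. Its means were 4.73 ± 0.08 in CD47- EVs and 4.38 ± 0.09 in WT EVs (SD, n = 3 each), a log2 difference of 0.34 (standard error 0.08, 95% interval 0.17 to 0.52) or 1.27-fold. The adjusted p was 0.0999 (limma), with a range of 0.0221 to 0.330 over the alternatives. Among these it passed 0.05 only when each array was centred on its olfactory receptor genes, with a log2 difference of 0.40. That centring also raised the count of all genes that passed from 126 to 240.

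BUB3, the WD-repeat partner that docks BUB1 and BUB1B on kinetochores, had values of 4.53, 4.28 and 4.58 in CD47- EVs and of 4.19, 4.21 and 4.09 in WT EVs. These groups did not overlap either, and CD47- replicate 2 lay closest to the WT arrays. The log2 difference was 0.30 (95% interval 0.10 to 0.50, adjusted p = 0.261, limma). BUB1B (BUBR1), the inhibitor of APC/C-CDC20, had values of 4.62, 4.67 and 4.71 in CD47- EVs and of 4.57, 4.58 and 4.59 in WT EVs, a log2 difference of 0.09 without overlap (adjusted p = 0.862, limma). MAD2L1, which binds CDC20 at unattached kinetochores, was at 3.94, 3.88 and 3.95 in CD47- EVs and at 3.83, 3.96 and 3.97 in WT EVs, with a difference of 0.00 and an interval from -0.16 to 0.16. The remaining checkpoint kinase, TTK (MPS1), had a difference of 0.04. All 5 checkpoint means were below the olfactory receptor median.

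**Figure D4:**
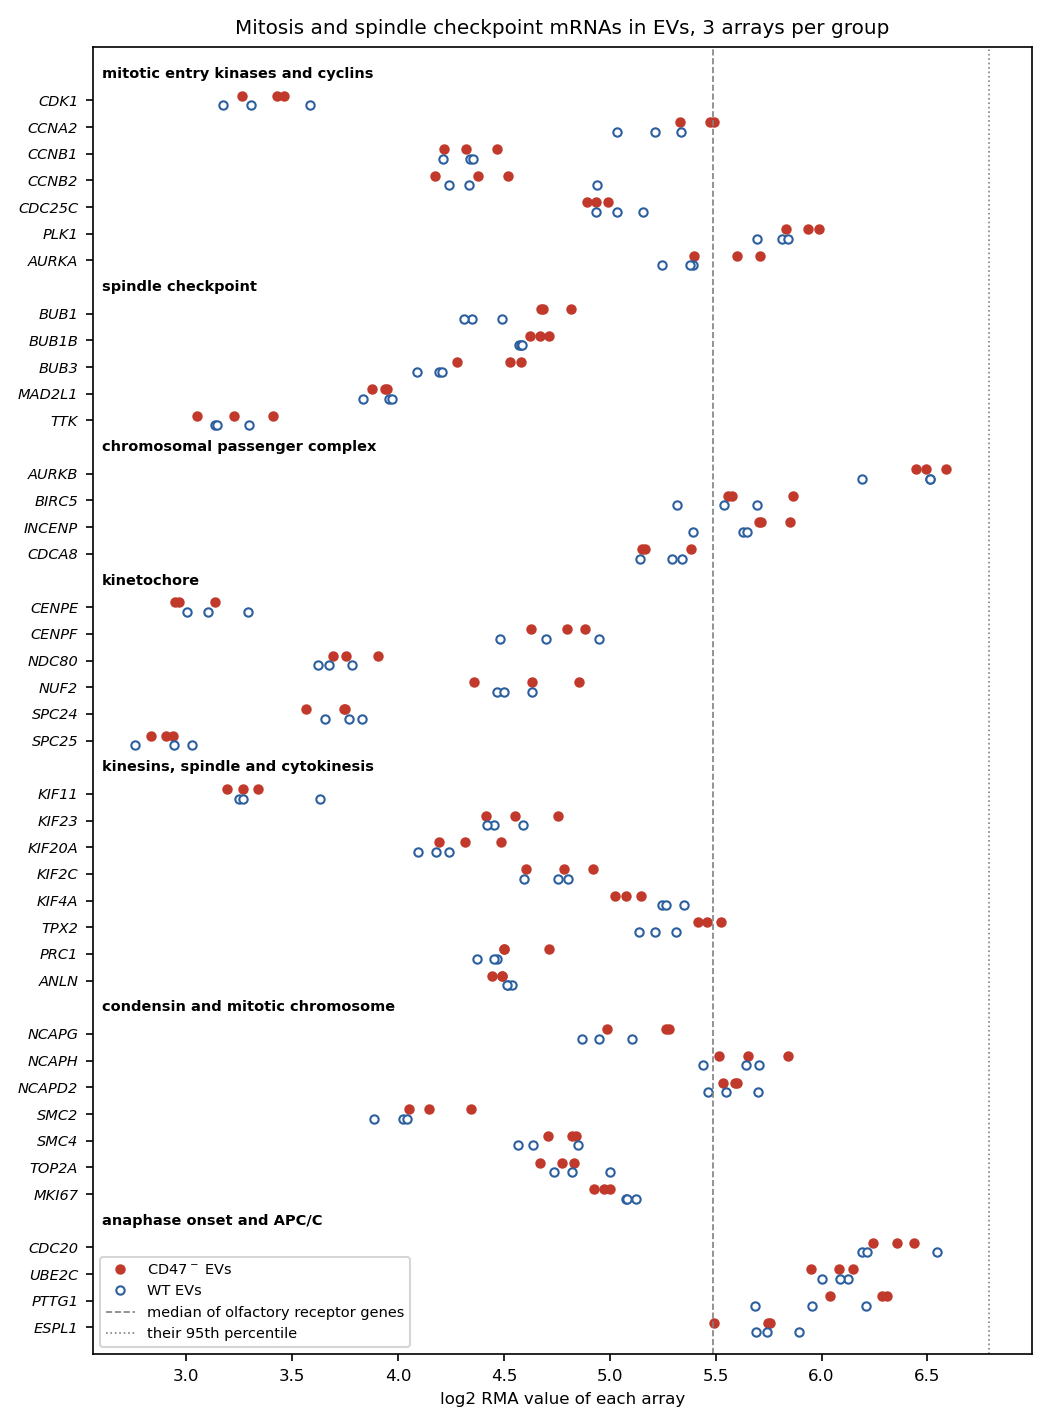
Log2 RMA value of each array (horizontal axis) for the 41 measured mRNAs, grouped by role, with filled red points for the 3 CD47- arrays above open blue points for the 3 WT arrays, and vertical lines at the olfactory receptor median (5.49, dashed) and 95th percentile (6.79, dotted). BUB1 shows 3 CD47- points between 4.68 and 4.82 to the right of 3 WT points between 4.31 and 4.49, while the points of MAD2L1 are mixed.

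Among the kinases and cyclins of mitotic entry, 2 of 7 had an unadjusted p under 0.05 (limma), both with higher values in CD47- EVs, against 5.16% of all genes. CCNA2, the cyclin A of S phase and mitotic entry, had values of 5.33, 5.47 and 5.49 in CD47- EVs and of 5.03, 5.33 and 5.21 in WT EVs. The groups touched at 1 array of each, and the log2 difference was 0.24 (95% interval 0.04 to 0.44, adjusted p = 0.464, limma). AURKA, the Aurora kinase of centrosomes and spindle poles, had values of 5.60, 5.40 and 5.71 in CD47- EVs and of 5.39, 5.24 and 5.38 in WT EVs. CD47- replicate 2 and WT replicate 1 were nearly equal, and the log2 difference was 0.23 (95% interval 0.03 to 0.43, adjusted p = 0.498, limma).

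The groups of the B-type cyclins and of their kinase overlapped. CCNB2 had values of 4.38, 4.18 and 4.52 in CD47- EVs and of 4.24, 4.94 and 4.34 in WT EVs. Its log2 difference of -0.15 had the lowest interval bound of all members, at -0.49 (adjusted p = 0.903, limma). It rested on WT replicate 2, without which it was 0.07. CCNB1 and CDK1 each had a difference of 0.03, CDC25C, the phosphatase that activates CDK1, one of -0.10, and PLK1 one of 0.13. The median difference of the 7 was 0.03.

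In the chromosomal passenger complex, which corrects faulty attachments at the inner centromere, 3 of 4 differences were above 0. INCENP, the scaffold of the complex, had values of 5.85, 5.71 and 5.71 in CD47- EVs and of 5.63, 5.65 and 5.39 in WT EVs, without overlap. The log2 difference was 0.20 (95% interval 0.01 to 0.39, adjusted p = 0.595, limma). AURKB, the kinase of the complex, had values of 6.50, 6.59 and 6.44 in CD47- EVs and of 6.51, 6.51 and 6.19 in WT EVs. Its groups overlapped, and the difference of 0.10 was -0.0039 without WT replicate 3.

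AURKB, INCENP and, by its brighter probe set, BIRC5 each had their lowest value of the 6 arrays in WT replicate 3, and CDCA8 did not. CDCA8 (borealin) had values of 5.15, 5.38 and 5.17 in CD47- EVs and of 5.34, 5.14 and 5.30 in WT EVs, a difference of -0.03. BIRC5 (survivin) had a difference of 0.15 by its brighter probe set and of 0.02 by its other one. That other probe set was lowest in WT replicate 2, at 5.025, against 5.027 in WT replicate 3.

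None of the 6 measured kinetochore mRNAs separated the groups, against 7.3% of all genes as higher and 5.53% as lower. At an unadjusted p under 0.05 (limma) there were 0, against 5.16% of all genes as higher and 2.87% as lower. Their differences lay between -0.12 and 0.09, with a median of 0.02. NDC80, the microtubule-binding subunit of the outer kinetochore, had values of 3.75, 3.91 and 3.69 in CD47- EVs and of 3.67, 3.78 and 3.62 in WT EVs. CENPE, the kinetochore kinesin that carries chromosomes to the spindle equator, had values of 2.95, 3.14 and 2.97 in CD47- EVs and of 3.10, 3.01 and 3.29 in WT EVs. Both sets overlapped. NUF2, SPC24 and SPC25, the partners of NDC80 in its complex, had differences of 0.08, -0.06 and -0.02, and CENPF had one of 0.06. All 6 means were below the olfactory receptor median.

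The kinesins and spindle proteins held non-overlapping mRNAs in both directions. TPX2, which activates AURKA on spindle microtubules, had values of 5.46, 5.42 and 5.53 in CD47- EVs and of 5.22, 5.14 and 5.31 in WT EVs. The log2 difference was 0.24 (95% interval 0.08 to 0.41, adjusted p = 0.306, limma). AURKA, its partner on the spindle, had a difference of 0.23, and CCNA2 one of 0.24. None of these passed the test.

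KIF4A, a chromosome-bound kinesin that also works at the central spindle, had values of 5.15, 5.02 and 5.08 in CD47- EVs and of 5.35, 5.25 and 5.27 in WT EVs. It was the only one of the 41 with an interval wholly below 0, with a log2 difference of -0.21 (95% interval -0.37 to -0.04, adjusted p = 0.422, limma). A second probe set, shared with the near copy KIF4B, had a difference of -0.10. After centring on the olfactory receptor genes the difference of KIF4A was -0.15.

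PRC1, the microtubule bundler that recruits KIF4A to the central spindle, lay on the other side. It had values of 4.71, 4.50 and 4.50 in CD47- EVs and of 4.47, 4.45 and 4.37 in WT EVs, a difference of 0.14 without overlap (adjusted p = 0.751, limma). ANLN (anillin), a scaffold of the cleavage furrow, had values of 4.49, 4.49 and 4.45 in CD47- EVs and of 4.52, 4.54 and 4.51 in WT EVs. Its groups were separate but close, with a difference of -0.05 that was 0.01 after centring on the olfactory receptor genes. Among the other motors the differences were -0.12 for KIF11, the kinesin that pushes spindle poles apart, 0.09 for KIF23, 0.16 for KIF20A and 0.05 for KIF2C. KIF23 and KIF20A act in cytokinesis and KIF2C depolymerizes microtubules.

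Of the 7 mRNAs for condensin and mitotic chromosome proteins, 5 had differences above 0. SMC2, the core ATPase of condensin, had values of 4.14, 4.05 and 4.34 in CD47- EVs and of 4.02, 4.04 and 3.88 in WT EVs. The groups did not overlap, by a narrow margin between CD47- replicate 2 and WT replicate 2, and the log2 difference was 0.20 (adjusted p = 0.618, limma). NCAPG, a condensin I subunit, had values of 5.27, 4.99 and 5.28 in CD47- EVs and of 4.87, 4.95 and 5.11 in WT EVs, a difference of 0.20 with overlap (adjusted p = 0.659, limma). The condensin mRNAs SMC4, NCAPH and NCAPD2 had differences of 0.11, 0.07 and 0.0034, so the subunits of 1 complex were spread from near 0 to 0.20.

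MKI67, which coats mitotic chromosomes and is widely used as a proliferation marker, had values of 4.93, 5.00 and 4.97 in CD47- EVs and of 5.12, 5.07 and 5.08 in WT EVs. All 3 CD47- arrays were lower, with a log2 difference of -0.13 (95% interval -0.28 to 0.03, adjusted p = 0.737, limma). TOP2A, the topoisomerase that untangles sister chromatids, had a difference of -0.09.

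The 4 mRNAs of anaphase onset all had means above the olfactory receptor median. None separated the groups, against 7.3% of all genes as higher and 5.53% as lower, too few mRNAs to differ from that share. PTTG1 (securin), the inhibitor of separase, had values of 6.29, 6.04 and 6.31 in CD47- EVs and of 5.95, 6.21 and 5.69 in WT EVs. WT replicate 2 lay inside the CD47- range, and the log2 difference was 0.26 (95% interval -0.0046 to 0.53, adjusted p = 0.635, limma). PTTG1 has close copies in the genome, with which its probes could cross-hybridize.

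CDC20, the APC/C activator, had values of 6.44, 6.24 and 6.35 in CD47- EVs and of 6.19, 6.54 and 6.21 in WT EVs, a difference of 0.03. ESPL1 (separase) had values of 5.75, 5.49 and 5.76 in CD47- EVs and of 5.89, 5.69 and 5.74 in WT EVs, a difference of -0.11. For UBE2C, a ubiquitin-conjugating enzyme of the APC/C, the difference was -0.0092. Securin and separase, partners in 1 complex, thus had differences of opposite sign, neither of which passed the test.

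By array, the median deviation of the 41 mRNAs from their own 6-array means was 0.03, 0.00017 and 0.03 in the CD47- arrays and -0.04, -0.04 and -0.06 in the WT arrays. Over all genes the same medians were 0.0055, 0.0047 and -0.0022 in the CD47- arrays and 0.02, 0.0043 and -0.03 in the WT arrays. CD47- replicate 2 held the lowest value of its group for 19 of the 41 mRNAs, against 32.3% of all genes. WT replicate 3 held the lowest for 17, against 46.3% of all genes.

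**Figure D5:**
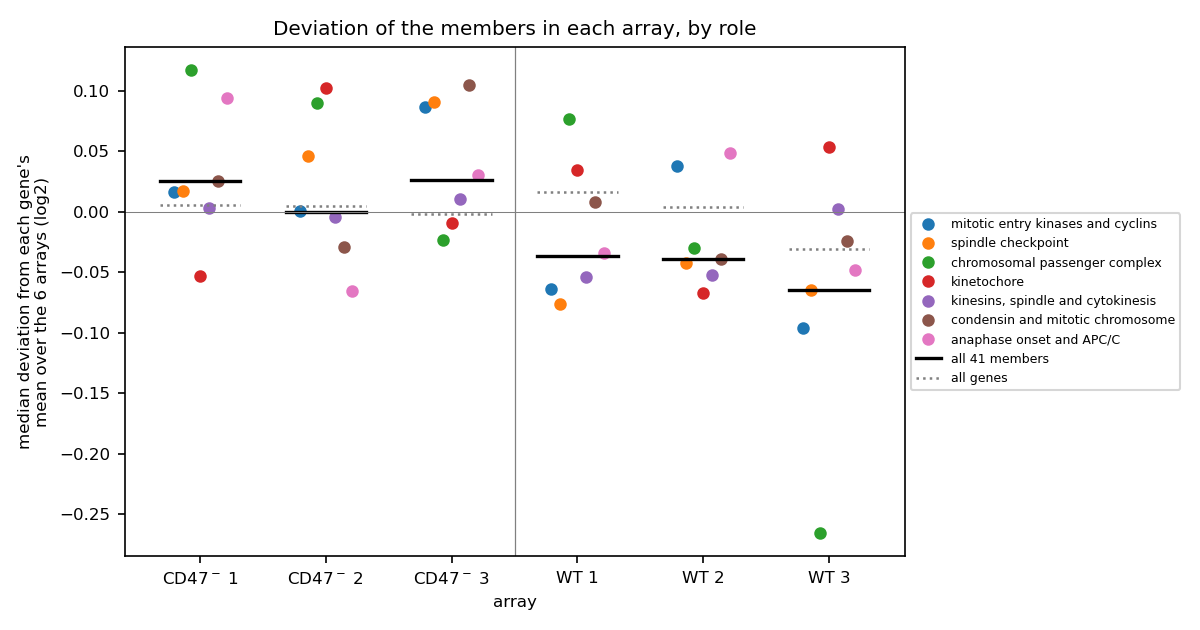
Median deviation of the mRNAs of each role from their own 6-array means (vertical axis, log2 units) in each array, with CD47- arrays left of WT arrays, black bars for all 41 mRNAs and dotted bars for all genes. The black bars stand at 0.03, 0.00017 and 0.03 in the CD47- arrays and at -0.04, -0.04 and -0.06 in the WT arrays. The passenger complex is at -0.27 in WT replicate 3, where AURKB, BIRC5 (by its brighter probe set) and INCENP were low and CDCA8 was not.

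Other genes of mitosis, on a list of 120 that included further APC/C subunits, cohesin, condensin II, kinetochore and spindle genes, gave 116 measured mRNAs. Of these 0 passed (limma, adjusted p under 0.05), 6 were higher at an unadjusted p under 0.05 (5.17%, against 5.16% of all genes) and 0 were lower. The groups of 11 did not overlap with CD47- EVs higher (9.48%, against 7.3% of all genes) and of 0 with CD47- EVs lower (against 5.53%), and the median log2 difference was 0.03. ANAPC4, an APC/C subunit, had values of 3.88, 4.05 and 4.09 in CD47- EVs and of 3.69, 3.66 and 3.75 in WT EVs, a log2 difference of 0.31 (adjusted p = 0.161, limma). The cohesin subunits RAD21 and SMC1A had log2 differences of 0.38 (adjusted p = 0.301, limma) and 0.21 (adjusted p = 0.369, limma). On the other side the smallest p values belonged to the kinase MASTL (log2 difference -0.20), the augmin subunit HAUS1 (-0.20) and the kinetochore protein ZWILCH (-0.21), and the groups of each overlapped.

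The DNA replication genes, which serve the preceding S phase, gave 44 measured mRNAs of 45 listed. Of these 0 passed (limma, adjusted p under 0.05), while at an unadjusted p under 0.05 the same test gave 7 with higher values (15.9%, against 5.16% of all genes) and 0 with lower ones (against 2.87%). The groups of 6 did not overlap with CD47- EVs higher (13.6%, against 7.3% of all genes) and of 0 with CD47- EVs lower (against 5.53%). The median log2 difference of the replication genes was 0.02, against 0.06 for the mitosis mRNAs, a gap that was not tested. RRM1, the large subunit of ribonucleotide reductase, had a log2 difference of 0.33 (adjusted p = 0.130, limma), and the helicase subunit MCM7 had one of 0.25 (adjusted p = 0.387, limma).

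The 6 arrays had medians over 33297 probe sets between 5.08 and 5.14, and pairs of arrays correlated with r between 0.981 and 0.989 across genes. CD47 itself was at 4.58, 4.67 and 4.94 in CD47- EVs and at 4.72, 4.69 and 4.72 in WT EVs, so that its probe set does not check the labels. Of 13 T cell markers 8 had means above the olfactory receptor median and 2, CD7 and LCK, above the 95th percentile. The sum of their unlogged values was 956 to 970 in the CD47- arrays and 841 to 924 in the WT arrays. Of the 13, 4 were higher without overlap (30.8%, against 7.3% of all genes). These were CD3D, CD3E, CD3G and PTPRC, with log2 differences of 0.28, 0.37, 0.34 and 0.15. The other T cell markers overlapped, with differences from -0.04 (CD247) to 0.17 (TRAT1). For the 6 measured EV markers the sum of unlogged values was 312 to 320 in the CD47- arrays and 271 to 310 in the WT arrays. Only 1 of them, SDCBP, did not overlap (16.7%, against 7.3% of all genes as higher), with a log2 difference of 0.64. The others all overlapped, with differences from -0.05 (CD9) to 0.14 (FLOT1). Summed epithelial and fibroblast markers overlapped, at 572 to 608 in the CD47- arrays and 579 to 595 in the WT arrays, with 2 of 7 above the 95th percentile. Singly, DCN was higher without overlap (log2 difference 0.19), 14.3% of the list against 7.3% of all genes. CDH1 (-0.14) and COL1A2 (-0.07) were lower without overlap, 28.6% against 5.53% of all genes. The rest of that list overlapped. The part of these shifts in the differences of the mitosis mRNAs was not tested. In such RNA, fewer EVs that carry an mRNA and fewer copies in each EV cannot be told apart.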

How the data were processed

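The authors deposited log2 values for 33297 probe sets, made in Affymetrix Expression Console with RMA (robust multi-array average). No source used here gives tool versions. RMA subtracts background, equalizes array distributions and combines probes, so that values are relative within an EV preparation. One label calls the human array a mouse array, and the human annotation was used. Groups and replicate numbers came from sample titles. Of the probe sets 19460 had 1 symbol, giving 18417 genes, and the brightest probe set stood for each gene. CD47- and WT EVs, 3 arrays each, were compared with limma 3.58.1 in R 4.3.3 (lmFit, eBayes), with p adjusted by Benjamini-Hochberg over all genes, and tabulated with pandas 2.3.3. The fit was tested on simulated data. Members and lists were chosen with earlier results of these data known. Named were members that passed, that did not overlap, the highest and lowest of each role and the 3 brightest, plus, of other lists, the smallest p values. Alternatives were the replicate number as a block, centring, quantile normalization, weights for arrays, a trended and robust variance model, a floor on dim genes, probe set choice, thresholds and leaving out arrays. Promoters came from RefSeq, the first window listed for each gene.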

Additional observations from a re-analysis of the deposited data

How the results depend on the processing

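The count of mitosis mRNAs called was 0 by the test used here. It was 1 (BUB1) after centring on the olfactory receptor genes, 1 at an adjusted p under 0.1 and 8 at an unadjusted p under 0.05, and 0 in the other alternatives and without each array in turn. At an unadjusted p under 0.05 the other mitosis genes gave 6 of 116 (5.17%) and the DNA replication genes 7 of 44 (15.9%), all higher, against 5.16% of all genes. Deviations of same-numbered arrays correlated at 0.02, -0.02 and -0.04, and 2 of 6 arrays correlated best with their own number. No pairing by replicate number was thus seen in the values, which cannot show whether same-numbered samples were prepared together. With the replicate number as a block 0 mitosis mRNAs were called, and over all genes 109 in place of 126.

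The median log2 difference of 0.06 was 0.12 after centring, which also moved the median of all genes to 0.06. It was 0.089 among genes brighter than the olfactory receptor median and 0.012 to 0.090 without 1 array. The count of 11 mRNAs without overlap was 1 of 10 among brighter genes, of which 9.45% were higher and 4.40% lower without overlap. It was 12 to 18 without 1 array. Of these, 9 to 13 of the 41 members were higher, while the share of all genes was 10.3% to 13.6%. From 3 to 5 of the 41 were lower, while the share of all genes was 8.94% to 12.4%. For scale, 8 of 41 is 19.5% and 3 of 41 is 7.32%. After centring 9 of the 41 were higher, while 13.7% of all genes were, and 2 of the 41 lower, while 1.52% of all genes were. Centring adds 0.06 to every difference, and the signs of 4 members near 0 turned with it: ANLN (0.011), CDCA8 (0.032), SPC25 (0.042) and UBE2C (0.050). Without 1 array the differences ran from -0.0039 to 0.16 for AURKB, -0.28 to 0.068 for CCNB2, -0.035 to 0.14 for CDC20, -0.10 to 0.0135 for CDCA8 and -0.043 to 0.025 for MAD2L1. The causes were not tested. Of 291 values of the 22 named members under the alternatives, 277 kept their sign and side of the threshold. The block, the variance model and the choice of probe set leave the differences of these members unchanged by construction. No named member passed in the main fit either, so the tally says little about how stable the differences are. With 3 arrays in each group the 95% intervals reached a median of 0.19 to either side of the estimate, which limits what could be detected.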
